A study of Mus musculus with 13 samples.

Results

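The genes described here are 10 transcripts that set or mark the identity of a myoblast, the proliferating precursor of a muscle fibre. They are the myogenic regulatory factors Myod1, Myf5, Myog and Myf6, the MEF2 factors Mef2a, Mef2c and Mef2d, the satellite cell factor Pax7, the repressor Msc and the muscle cadherin Cdh15. They were chosen by name, with earlier results of these data known. A probe set was used where the platform annotation named only 1 of these genes, which gave 23 probe sets for 10 of 18193 genes. The cells were C2C12, an established clonal line of mouse skeletal myoblasts, grown to 90% confluence in medium with 5% fetal bovine serum (FBS), held for 24 h in 0.2% FBS and then returned to medium with FBS. All arrays share that low-serum period, and no array of cells left in full serum was analysed here. RNA of 13 time points, 0 to 6 h after the return of serum in steps of 0.5 h, was hybridised to 1 Affymetrix mouse array each. There were no replicates, so arrays were grouped by labelled time into 0 h (1 array), an early window (0.5 to 2 h, 4 arrays), a middle window (2.5 to 4 h, 4 arrays) and a late window (4.5 to 6 h, 4 arrays).

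The 4 myogenic regulatory factors are basic helix-loop-helix (bHLH) proteins that pair with E proteins and bind E-boxes in the promoters of muscle genes. Myf5 and Myod1 commit cells to the muscle lineage and are expressed in dividing myoblasts, whereas Myog drives withdrawal into differentiation and Myf6 acts in maturing fibres. MEF2 factors bind A/T-rich sites beside E-boxes and cooperate with the bHLH factors, and Id proteins block them by capturing the E proteins. Serum mitogens hold myoblasts in the proliferating state, and serum withdrawal at high density is the usual way to make C2C12 cells differentiate.

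The values are ratios of each array to a reference value of the same probe set, so they show change over time and not how abundant a transcript was. Whether the myoblast markers were strongly expressed can therefore not be read from them, and no gene's level is set against another's. The median ratio of an array was at least 0.977 and at most 1.00. The interquartile range of the log2 ratios was widest at 0 h (0.32) and 0.5 h (0.26) and narrowest at 5 h (0.15). It did not fall steadily, with 0.17 at 1.5 h and 0.24 at 4 h. The 18S ribosomal RNA control (5′) had a ratio of 0.849 at 0 h, 0.411 to 1.40 in the early window, 0.397 to 2.14 in the middle window and 0.889, 3.92, 2.67 and 5.24 on the late arrays. The 5′ Actb control was highest at 5, 5.5 and 6 h (1.11, 1.12 and 1.13) and at most 1.06 on the other arrays, and the 5′ Gapdh control lay between 0.935 and 1.07. The part of these controls in the late differences given below was not tested. P-values measure the spread between neighbouring time points within windows, or around a fitted curve, and not the spread between replicate cultures. The number of arrays limits the precision. In RNA of whole cultures, fewer cells with a transcript and less of it per cell cannot be told apart.

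RefSeq promoter sequences (GRCm38.p6) were found for 7 of the 10 genes. Of these, the promoters of Myog and of the upstream start of Mef2c are shown, because Myog and Mef2c were the members that rose both from the middle to the late and from the early to the late window. Each is the 250 bases before the transcription start, 5′ to 3′, with E-boxes (CANNTG, which reads alike on both strands) and MEF2 cores (TA, then 4 bases that are each A or T, then TA; both strands searched) in capitals. The Myog sequence lies on the plus strand at chr1:134289754-134290003.
Myog: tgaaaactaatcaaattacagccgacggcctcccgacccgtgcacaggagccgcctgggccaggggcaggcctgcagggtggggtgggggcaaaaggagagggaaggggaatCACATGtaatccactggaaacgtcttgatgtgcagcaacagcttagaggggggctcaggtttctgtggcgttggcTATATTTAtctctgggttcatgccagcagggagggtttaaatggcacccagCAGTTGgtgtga
The Mef2c sequence lies on the plus strand at chr13:83503784-83504033.
Mef2c: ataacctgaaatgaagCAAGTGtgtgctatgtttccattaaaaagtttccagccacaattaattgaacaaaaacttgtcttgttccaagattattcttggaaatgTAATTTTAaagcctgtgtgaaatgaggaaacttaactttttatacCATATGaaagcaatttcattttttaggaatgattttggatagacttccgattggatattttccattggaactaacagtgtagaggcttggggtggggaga
In Myog the E-boxes start 138 and 12 bases before the transcription start and the MEF2 core 63 bases before it. In Mef2c the E-boxes start 234 and 100 bases and the core 145 bases before the start. Among all 32851 promoter sequences of this length, 66.2% held an E-box and 8.6% a MEF2 core. The core was defined after a stricter motif had missed the Myog promoter, so the Myog match carries no weight beside that share. The Mef2c match rests on the same later core and lies at 1 of 3 starts, so it is descriptive as well. The Cdh15 promoter held 3 E-boxes and no core, and in those of Myf5, Mef2a, Mef2d and Pax7 neither set of letters was found in this window. Mef2c has 3 starts in the table, and the promoters of the other 2 held no core, with 0 and 1 E-box.

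Over the whole course, 8 of the 10 genes followed a smooth time course that passed the test (moderated F test of a spline of time, limma, Benjamini-Hochberg adjusted p under 0.05 over all genes), where 38.0% of all genes passed. Mef2a, Mef2c, Myf5, Cdh15, Msc, Pax7, Myog and Myod1 passed, in order of p, and Myf6 (adjusted p = 0.161) and Mef2d (adjusted p = 0.157) missed the threshold. The median span between the highest and lowest array was 1.57-fold for the members and 1.37-fold for all genes. Myf5 spanned 2.20-fold, more than 96.2% of genes, Pax7 1.94-fold and Mef2a 1.84-fold, while Mef2d spanned 1.26-fold. Of the 23 single probe sets 14 passed, where 30.7% of all probe sets did.

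**Figure D1:**
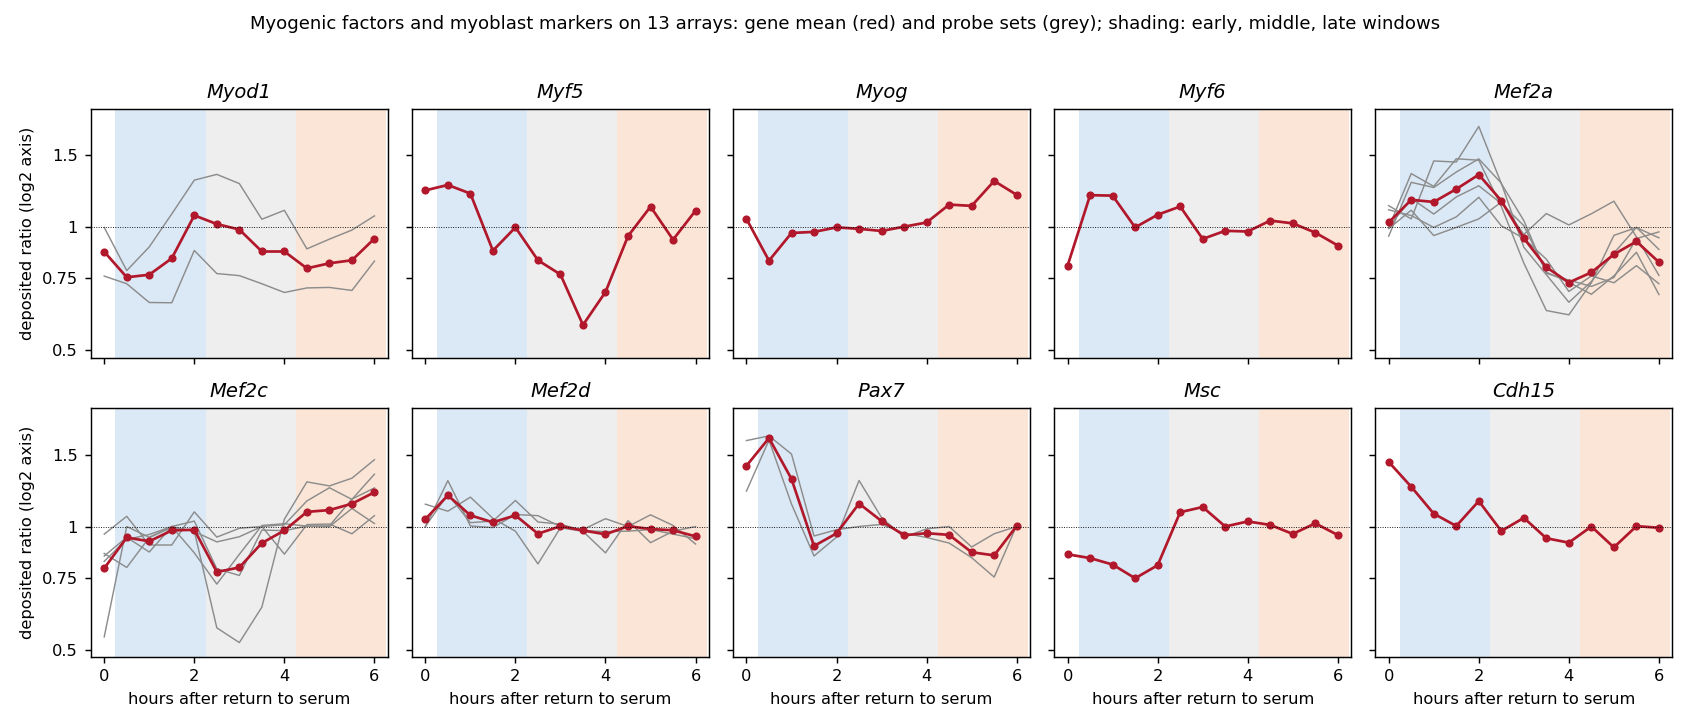
Deposited ratio (log2 axis) of each of the 10 genes against hours after the return of serum, with the mean over probe sets in red, single probe sets in grey and the windows shaded. Myf5 dips to 0.577 at 3.5 h, Mef2a peaks at 2 h and is lowest at 4 h, Msc steps up at 2.5 h, and Cdh15 falls from its 0 h value.

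Pax7 encodes the paired-box factor that marks satellite cells, the stem cells of adult muscle. Its ratio was 1.41 at 0 h and 1.65, 1.31, 0.896 and 0.962 at 0.5, 1, 1.5 and 2 h. In the middle window it read 1.14, 1.03, 0.952 and 0.963, and in the late window 0.954, 0.865, 0.850 and 1.00. In the gene mean the first 3 arrays were thus the highest of the course, and every later array lay below them. The smooth course of the gene mean passed (adjusted p = 0.00452, limma). Of the probe sets, 1444596_at passed (adjusted p = 3.53e-04) and 1452510_at did not (adjusted p = 0.134). The latter read 1.22 at 0 h, 1.135 at 1 h and 1.30 at 2.5 h. No window difference of the gene mean passed. The step fell inside the early window, whose SD on the log2 scale was 0.41 (n = 4). The late minus early difference was -0.35 ± 0.15 (SE; adjusted p = 0.117), and without the 1.5 h array it was called (adjusted p = 0.0275). The probe sets differed in size: 1444596_at went from 1.67 at 0.5 h to 0.752 at 5.5 h and fell by 0.50 ± 0.15 from early to late (adjusted p = 0.0343), whereas 1452510_at stood at -0.20 ± 0.16 (adjusted p = 0.487).

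Myf5, the earliest of the myogenic regulatory factors in the embryo, fell and came back. Its ratio was 1.23 at 0 h and 1.27, 1.21, 0.877 and 1.00 in the early window. The middle window followed with 0.831, 0.767, 0.577 and 0.695, and the late window with 0.952, 1.12, 0.933 and 1.10. All 4 middle arrays lay below all 4 early and all 4 late arrays. The middle window was 0.60 ± 0.13 lower than the early one on the log2 scale (0.660-fold, adjusted p = 0.00421), a call that held in all 19 alternatives that were run. The late window was 0.53 ± 0.13 higher than the middle one (1.44-fold, adjusted p = 0.0155). With the 6 h array left out, this rise missed the threshold (0.49, adjusted p = 0.0539), as it did with windows shortened by their last array (0.48, adjusted p = 0.0890). Late and early differed by -0.07 ± 0.13 (adjusted p = 0.753). A single probe set, 1420757_at, carries all of these values.

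Myod1 encodes the factor able to turn other cell types into muscle. Its ratio was 0.872 at 0 h, then 0.755, 0.766, 0.840 and 1.07 in the early window. It was 1.02, 0.988, 0.873 and 0.873 in the middle window and 0.794, 0.817, 0.831 and 0.939 in the late window. The highest values were those of 2, 2.5 and 3 h, with lower values on both sides. The smooth course passed (adjusted p = 0.0341), but it was lost without the 0.5, 1, 1.5, 2.5 or 3 h array (adjusted p from 0.0618 to 0.123) and with a spline of 3 degrees of freedom (adjusted p = 0.247). No window difference passed. The middle minus early difference was 0.14 ± 0.10 (adjusted p = 0.341), and it was called without the 2 h array, the highest of the course (0.25, adjusted p = 0.0349). The rise sat in probe set 1418420_at, which went from 0.784 at 0.5 h to 1.35 at 2.5 h (smooth course, adjusted p = 0.0104). The other, 1447675_x_at, lay under 1 on all 13 arrays (0.654 to 0.878), as did 6.70% of all probe sets, and its course did not pass (adjusted p = 0.427).

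Myog encodes myogenin, which is switched on as myoblasts leave the cell cycle to differentiate. The ratio was 1.05 at 0 h and 0.829, 0.969, 0.975 and 1.00 in the early window. It was 0.992, 0.980, 1.00 and 1.03 in the middle window and 1.14, 1.13, 1.30 and 1.20 in the late window. Every late array exceeded the other 9, while the early and middle arrays overlapped. The rise from the early to the late window was 0.34 ± 0.07 (1.26-fold, adjusted p = 0.00194), and it was called in all 19 alternatives. The rise from the middle to the late window was 0.25 ± 0.07 (adjusted p = 0.0253), and it was lost without the 2.5, 3, 5.5 or 6 h array (adjusted p from 0.0582 to 0.0817). The smooth course passed (adjusted p = 0.0170), but leaving out the 5.5 h array ended that call (adjusted p = 0.0753). The late mean stood 1.13-fold over the single 0 h array, a difference that was not tested.

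Myf6, also called MRF4, was lowest at 0 h (0.806). It read 1.20, 1.20, 1.00 and 1.07 in the early window, 1.13, 0.937, 0.981 and 0.977 in the middle window and 1.04, 1.02, 0.971 and 0.903 in the late window. Myf6 was the only member called between 0 h and the early window (0.47 ± 0.12, 1.38-fold, adjusted p = 0.0486), where 3.26% of all genes were called, 1.46% higher and 1.81% lower. Of the 23 probe sets none was called there with limma (4 at an unadjusted p under 0.05), where 3.02% of all probe sets were. The call rests on a single 0 h array and lies at the threshold. It was lost in 12 of 18 alternatives, among them quantile normalization (0.37, adjusted p = 0.270) and leaving out the 1, 2, 3, 3.5, 4, 4.5, 5 or 5.5 h array.

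Mef2a, which encodes a MEF2 factor present in many tissues, was the only member called lower from early to late. Its ratio was 1.03 at 0 h and rose over the early arrays to 1.17, 1.15, 1.24 and 1.35. The middle window read 1.16, 0.941, 0.799 and 0.733, and the late window 0.776, 0.859, 0.924 and 0.822. All early arrays lay above all late arrays, and the middle window held the descent, with 2.5 h still at the early level. The middle minus early difference was -0.45 ± 0.11 (0.730-fold, adjusted p = 0.0119), and the late minus early difference was -0.54 ± 0.11 (0.689-fold, adjusted p = 0.00348). The late minus early call held in all 19 alternatives, and the middle call was lost with windows shortened by their last array (-0.31, adjusted p = 0.0864). Mef2a had 6 probe sets, of which 5 passed in both comparisons, where 18.0% and 15.3% of all probe sets passed. Probe set 1427186_a_at went from 1.47 at 1.5 h to 0.611 at 4 h. The sixth, 1442623_at, had its highest ratio at 5 h (1.16) and its lowest at 6 h (0.763), and differed by 0.03 ± 0.11 between middle and early (adjusted p = 0.860). Its correlation with the other 5 over the 13 arrays ran from -0.109 to 0.246, whereas those 5 correlated with each other at 0.747 to 0.958.

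Mef2c, the MEF2 gene most closely tied to the muscle, heart and neural lineages, moved the other way. Its ratio was 0.790 at 0 h and 0.940, 0.920, 0.978 and 0.982 in the early window. It dropped to 0.774 and 0.794 at 2.5 and 3 h and read 0.911 and 0.978 at 3.5 and 4 h. The late arrays read 1.09, 1.10, 1.14 and 1.21, above all of the other 9. The late window was 0.40 ± 0.07 higher than the middle one (1.32-fold, adjusted p = 0.00450), which held in all 19 alternatives. It was 0.25 ± 0.07 higher than the early one (1.19-fold, adjusted p = 0.0251), which was lost without the 0.5, 1, 5.5 or 6 h array (adjusted p from 0.0533 to 0.0782). With 1 probe set per gene this early to late rise was also lost (0.44, adjusted p = 0.0586). It was called in 1 of 5 probe sets, 1421028_a_at (0.34 ± 0.07, adjusted p = 0.00218), where 15.3% of all probe sets were called. The late mean was 1.43-fold the 0 h value, a difference that was not tested. The dip between the early and late windows was widest in probe set 1421027_a_at. Its ratio was 0.537 at 0 h, 0.941 to 1.00 in the early window, 0.565, 0.520, 0.635 and 1.04 in the middle window and 1.26 to 1.46 in the late window. Over the whole gene the middle minus early difference was -0.15 ± 0.07 (adjusted p = 0.150). A fall was called in 1 of 5 probe sets, 1421027_a_at, which fell by 0.56 ± 0.15 from early to middle (adjusted p = 0.0204) and rose by 1.00 ± 0.15 from middle to late (adjusted p = 0.00180). Of the 5 probe sets, 3 rose from middle to late, where 9.41% of all probe sets were called, and 1451506_at stayed between 0.856 and 1.09 on all arrays.

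**Figure D2:**
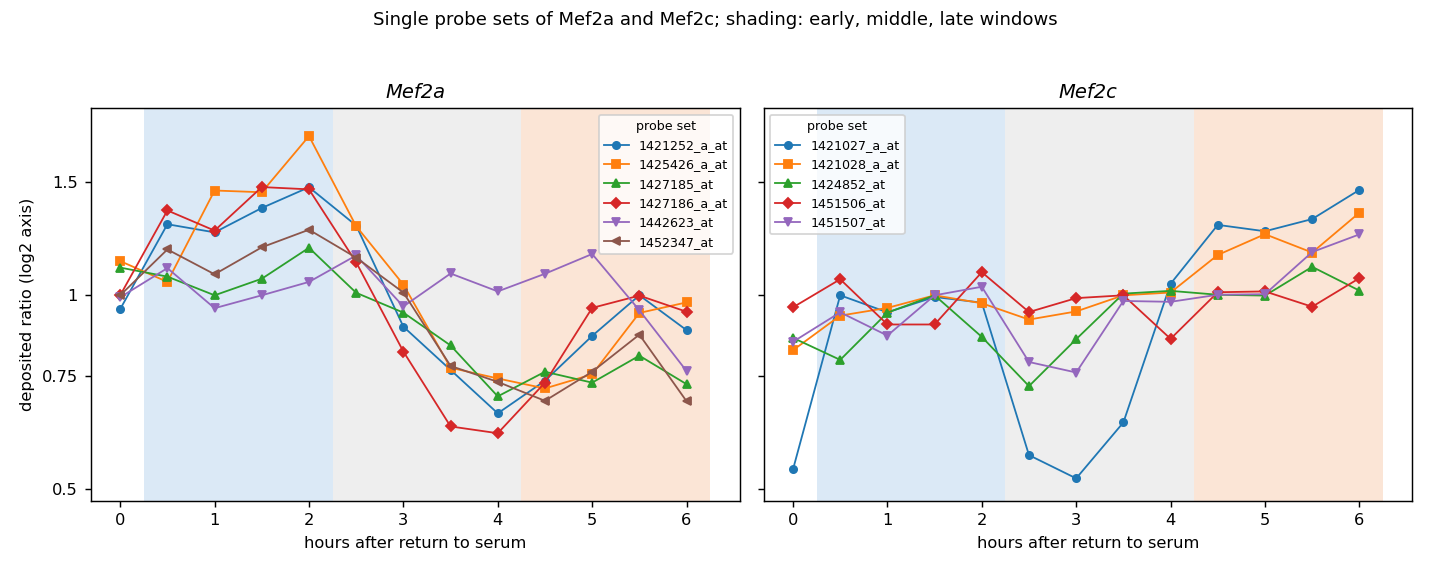
Deposited ratio (log2 axis) of the 6 Mef2a and 5 Mef2c probe sets against hours after the return of serum, with the windows shaded. Mef2a probe sets other than 1442623_at descend between 2 and 4 h, and Mef2c probe set 1421027_a_at drops to 0.520 at 3 h and ends at 1.46.

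Mef2d, the third MEF2 gene measured, varied least of the members. It read 1.04 at 0 h, 1.19, 1.06, 1.02 and 1.06 in the early window, 0.957 to 1.00 in the middle window and 0.946 to 1.00 in the late window. Its middle minus early difference was -0.16 ± 0.05 (adjusted p = 0.0531) and its late minus early difference -0.15 ± 0.05 (adjusted p = 0.0662). None of its 3 probe sets passed in any comparison. Without the 1.5 h array both differences were called (adjusted p = 0.0421 and 0.0495).

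Msc encodes musculin (MyoR), a bHLH repressor of myoblasts that competes for E-boxes. It read 0.855 at 0 h and 0.837, 0.807, 0.747 and 0.804 in the early window. It then stepped up to 1.08, 1.12, 1.00 and 1.03 in the middle window and stayed at 1.01, 0.959, 1.02 and 0.953 in the late window. The 5 arrays up to 2 h and the 8 from 2.5 h on did not overlap. The middle minus early difference was 0.40 ± 0.06 (1.32-fold, adjusted p = 3.81e-04), the smallest p of any member in a window comparison. The late minus early difference was 0.30 ± 0.06 (1.23-fold, adjusted p = 0.00121). Both were called in all 19 alternatives.

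Cdh15 encodes M-cadherin, a cell adhesion protein of myoblasts and satellite cells. Its ratio was highest at 0 h (1.44), followed by 1.25, 1.08, 1.00 and 1.15 in the early window. It was 0.975, 1.05, 0.936 and 0.913 in the middle window and 1.00, 0.889, 1.00 and 0.993 in the late window. The smooth course passed (adjusted p = 0.00232), but not once the single 0 h array was left out (adjusted p = 0.0852). The early minus 0 h difference of -0.37 ± 0.11 missed the threshold (adjusted p = 0.0947), and it was called without the 0.5 h array (-0.42, adjusted p = 0.0296). From early to late the difference was -0.20 ± 0.07 (adjusted p = 0.0614).

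Counted over the windows, 1 member rose and 2 fell from early to middle (Msc against Myf5 and Mef2a), where 7.74% of all genes rose and 14.4% fell (22.2% called). From middle to late the 3 members called all rose (Myf5, Myog and Mef2c), where 10.3% of all genes rose and 2.06% fell (12.3% called). From early to late 3 rose (Myog, Mef2c and Msc) and 1 fell (Mef2a), where 11.7% and 9.29% did (21.0% called). The median differences of the 10 members in these comparisons were -0.154, -0.013 and -0.112, against -0.001, 0.024 and 0.019 over all genes. Leaving out the 1.5 h array raised the counts to 5 from early to middle and 8 from early to late, and leaving out the 6 h array lowered the count from middle to late to 1. The members did not share a common course. Over the 13 arrays the highest correlations between members were those of Pax7 with Cdh15 (0.750), Mef2d with Pax7 (0.711) and Mef2d with Cdh15 (0.692). The lowest were those of Myog with Mef2d (-0.687), Mef2a with Msc (-0.659) and Myog with Pax7 (-0.649). Myog correlated at 0.621 with Mef2c and at -0.528 with Mef2a. These arrays are 1 time series, and the values are descriptive.

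**Figure D3:**
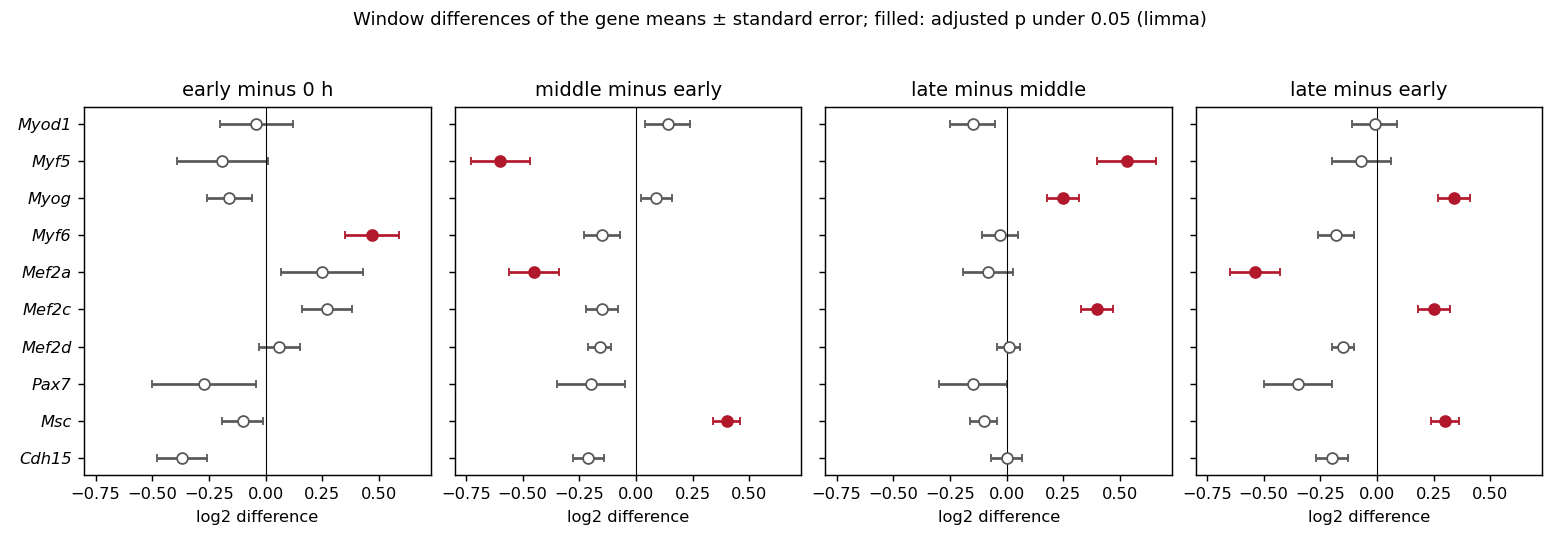
Log2 difference of each gene between windows (points) with its standard error (bars), 1 panel per comparison; filled red points have an adjusted p under 0.05 (limma). Myf5 and Mef2a are called lower and Msc higher from early to middle, and Myog, Mef2c and Msc are called higher from early to late.

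The study looked for oscillating genes of segmentation, and the mouse segmentation clock has a period near 2 h. A cosine and sine of that period over a spline trend passed for 0 of the 10 members and for 0 of 18193 genes (0% called, limma, adjusted p under 0.05). At an unadjusted p under 0.05, the limma test passed for 2 members, Myf5 and Pax7 (adjusted p = 0.998 for each), and for 3.96% of all genes. With a period of 3 h, 74 genes were called and no member was (lowest adjusted p = 0.176, Mef2c).

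The related lists below were chosen with earlier results of these data known, so their counts beside those of all genes are descriptive. Of 22 partners and inhibitors of the bHLH factors, 4 rose from 0 h to early (Id1, Id2, Id3 and Bhlhe40), where 1.46% of all genes rose. The rises rest on the single 0 h array, and under quantile normalization the count was 1. From early to late 8 fell and 2 rose, where 9.29% of all genes fell and 11.7% rose. The falls included those of the partners Tcf4 (-0.73 ± 0.08) and Tcf12 (-0.30 ± 0.07). The others that fell were Id1, Id3, Heyl, Bhlhe40, Zeb1 and Snai2. For this list the falls thus took in partners as well as inhibitors. The list's median was then -0.21 against 0.02 over all genes. The Notch effector Heyl, a bHLH repressor, fell by 1.32 ± 0.13 from early to late (adjusted p = 1.98e-05, limma). Its ratio was 1.82 to 2.27 in the early window and 0.727 to 0.852 in the late window. The 0 h array, outside that difference, read 2.64. Bhlhe40, a bHLH repressor of the circadian system, fell by 1.06 ± 0.25 from early to late (adjusted p = 0.00640) after a peak of 2.67 at 1.5 h. Its rise from 0 h to early (1.56 ± 0.39, adjusted p = 0.0447, limma) was lost in 12 of 18 alternatives. Id2, an inhibitor that captures E proteins, rose by 1.71 ± 0.27 from 0 h to the early window (adjusted p = 0.00581), a call lost under quantile normalization (1.18, adjusted p = 0.0828). The early to late rises were those of Twist2, a bHLH repressor, and Hes6, named because they were the only ones (0.93 ± 0.12 and 0.22 ± 0.06).

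Of 30 coregulators and signalling genes of the MEF2 factors, 9 were called from early to late, and these fell (9.29% of all genes fell), with a list median of -0.05 against 0.02. The single call from 0 h to early (Srf) and the single call from middle to late (Nfatc3) were rises. Srf, the serum response factor, rose by 0.98 ± 0.21 from 0 h to early (adjusted p = 0.0282) and fell by 0.62 ± 0.14 from early to late (adjusted p = 0.00421). Leaving out the 1.5 h array ended the call of the rise (0.91, adjusted p = 0.0553), as did quantile normalization (0.85, adjusted p = 0.158). Akap6, a kinase-anchoring protein of muscle, fell by 0.65 ± 0.08 from early to late (adjusted p = 6.33e-05). Vgll3, a cofactor of TEAD factors, fell by 0.56 ± 0.11 from early to middle (adjusted p = 0.00281). Among 24 chromatin cofactors of MyoD, 9 fell and 2 rose from early to late (median -0.11), where 9.29% and 11.7% of all genes did. The rises were those of the arginine methyltransferase Prmt5 (0.80 ± 0.09, adjusted p = 3.15e-05) and of the Polycomb methyltransferase Ezh2 (0.40 ± 0.12, adjusted p = 0.0258). The Ezh2 call was lost without the 1.5, 2, 5.5 or 6 h array (adjusted p from 0.0713 to 0.0826, limma). It was also lost with shortened windows (0.29, adjusted p = 0.156). Ehmt2, a histone H3 methyltransferase, fell by 0.62 ± 0.09 (adjusted p = 1.58e-04).

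Of 28 upstream regulators of the myogenic factors, 2 rose and 1 fell from early to late (median 0.02), where 11.7% and 9.29% of all genes did. From early to middle 2 rose and 5 fell (7.74% and 14.4% of all genes), and 11 had a called smooth course (38.0% of all genes). The T-box gene Tbx1 dropped from 1.08 at 0 h to 0.569 at 2 h and stood at 1.00 to 1.16 in the late window. Its late minus early difference of 0.49 ± 0.15 (adjusted p = 0.0281, limma) was lost without the 1, 1.5, 2, 5.5 or 6 h array (adjusted p from 0.0515 to 0.0813). With shortened windows this difference was lost as well (0.32, adjusted p = 0.179). Sox8 fell by 0.56 ± 0.14 (adjusted p = 0.0101). The second rise was that of Rbpj, the DNA-binding partner of Notch, which lies outside the naming rule. The Krüppel-like factor Klf5 rose by 0.80 ± 0.17 from 0 h to early (adjusted p = 0.0226), a call lost under quantile normalization (0.67, adjusted p = 0.161). Among 35 surface, adhesion and fusion genes, 4 rose and 8 fell from early to late (median 0.01; 11.7% and 9.29% of all genes). The protease Adam12, which marks activated and fusing myoblasts, rose by 1.06 ± 0.12 (adjusted p = 3.66e-05), and the FGF receptor gene Fgfr4 fell by 0.50 ± 0.06 (adjusted p = 6.19e-05). The proteoglycan gene Sdc4 rose by 1.50 ± 0.19 from 0 h to early (adjusted p = 0.00143). The other 3 rises, also outside the naming rule, were those of the fusion gene Mymk (0.44 ± 0.07), of Cav3 (0.67 ± 0.14) and of Jam2 (0.18 ± 0.05).

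Of 36 genes of differentiated muscle, targets of the myogenic factors, 17 rose and 2 fell from early to late, where 11.7% and 9.29% of all genes did. The list's median was 0.20, and the other 17 did not pass. The 12 called from middle to late all rose (10.3% of all genes rose), a count that ranged from 3 (without the 2.5 h or 6 h array) to 18 (without the 0.5 h array) when 1 array was left out, and was 4 without the 5.5 h array, 6 without the 3 h array and 7 without the 5 h array. It was 7 with arrays centred on their median and 6 with shortened windows. The troponin genes Tnnc1 (0.63 ± 0.11, adjusted p = 9.81e-04), Tnnc2 (0.57 ± 0.12, adjusted p = 0.00256) and Tnnt3 (0.56 ± 0.11, adjusted p = 0.00253) rose from early to late. Tnnc1 read 0.691 at 0.5 h and 1.54 at 6 h. The genes that fell were the giant sarcomere protein Ttn (-0.29 ± 0.06) and the synaptic scaffold Rapsn (-0.19 ± 0.05). The 18S control ratio was above 2 at 4, 5, 5.5 and 6 h and 0.889 at 4.5 h. The part of this control in the late differences was not tested.

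**Figure D4:**
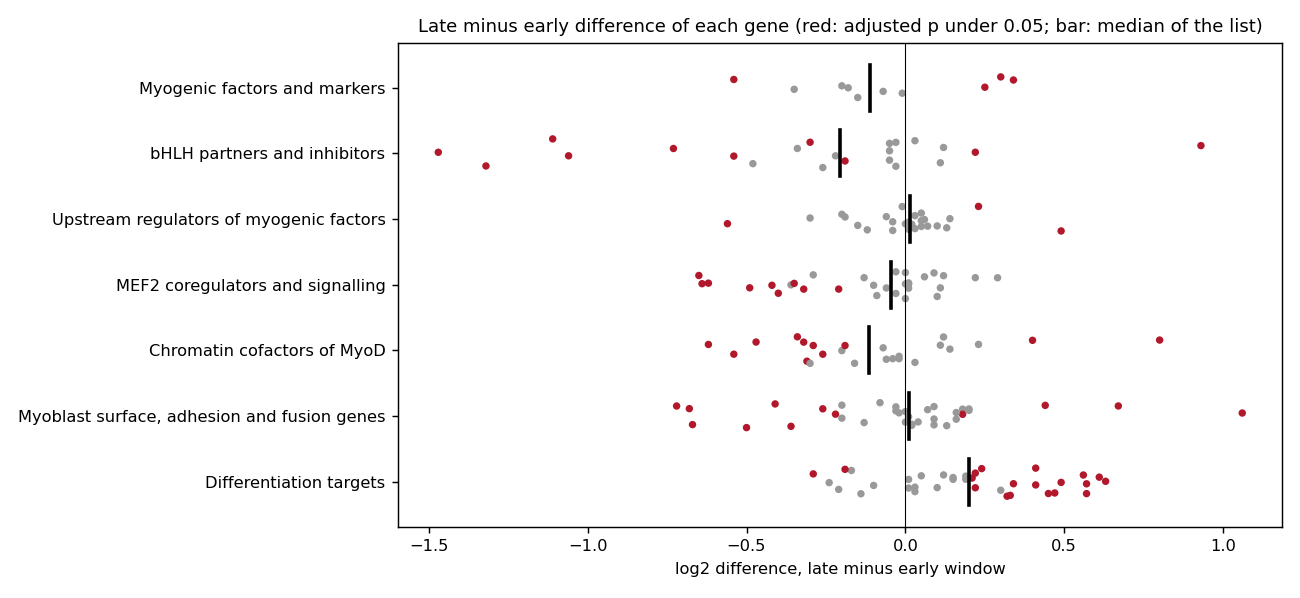
Log2 difference between the late and the early window for each measured gene of the 10 members and of the related lists; red points have an adjusted p under 0.05 (limma) and black bars are medians, and vertical scatter within a list only separates points. Most called differentiation targets lie to the right of 0 (median 0.20), and the called MEF2 coregulators all lie to the left.

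For the 8 members with a called smooth course, the 3 genes of most like pattern among 18192 others were found by Pearson correlation of log2 ratios over the 13 arrays. They were Ei24 (0.980), Dcun1d2 (0.958) and Gramd4 (0.948) for Myog, and Lmod2 (0.959), Cdk10 (0.952) and Tubg1 (0.948) for Mef2c. For Mef2a they were Aff4, D5Ertd579e and Cpeb4 (0.944 each), and for Myf5 Marcks (0.931), Suclg2 (0.928) and Zbtb18 (0.924). Pax7 was closest to Dusp10 (0.964), Bcl2l11 (0.916) and Per3 (0.913), and Cdh15 to C1qtnf6 (0.970), Gaa (0.964) and Tsc2 (0.963). Msc was closest to B230307C23Rik (0.923), Bcl2l2 (0.909) and Atxn1 (0.893), and Myod1 to Rasgrp2 (0.865), Ptgir (0.853) and Ahr (0.847). These genes were picked as the highest of many, from arrays that follow each other in time.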

How the data were processed

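Expression was measured on 13 arrays of C2C12 cells. The deposited values are linear ratios, made by the authors; what each probe set was divided by is not stated in the labels. RMA was used per the submitters' processing notes, with no version. The 64 array controls were left out of the tests, leaving 45037 probe sets; 34945 named 1 gene in the platform annotation, and the mean log2 ratio over them gave 18193 genes. Windows, a spline (4 degrees of freedom) and a cosine with a sine (period 2 h, trend of 3 degrees of freedom) were tested, two-sided, with limma 3.58.1 (lmFit, eBayes) in R 4.3.3. Benjamini-Hochberg adjusted p under 0.05 over all genes, or over all probe sets, was the threshold. Each model was first tested on simulated data. Promoters and figures were handled in Python 3.11.15.

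The members and the 6 related and 5 marker lists (175 of 179 and 35 of 39 entries measured) were chosen with earlier results of these data known. Named were all members, up to 3 genes per list with the smallest smooth-course p among genes that passed any test, and the 3 genes most like each member with a called smooth course. Alternatives were quantile normalization, median centring, a variance trend with a robust prior, 1 probe set per gene, shortened windows, other splines and periods, and leaving out each array. Leaving out probe sets under 1 on every array was added after the data were seen, and the MEF2 core was defined after a stricter motif had missed the Myog promoter.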

Additional observations from a re-analysis of the deposited data

Results flagged for a closer look

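In 30 combinations of a member and a window of 4 arrays, 2 held an array far from the other 3 for the range of that window (Dixon's ratio above 0.829), and chance gives about 1 in 20. Myog read 0.829 at 0.5 h, while the other early arrays lay between 0.969 and 1.00. Cdh15 read 0.889 at 5 h, while the other late arrays lay between 0.993 and 1.00.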

How the results depend on the processing

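Of 1160 member results under alternatives, 1109 kept their side of the threshold, 36 lost and 15 gained a call, and none that was called changed direction; 25 uncalled differences changed sign. From 0 h to early, no member was called under quantile normalization, median centring, 1 probe set per gene or shortened windows (0 each, against 1), and 0 to 2 when 1 array was left out. The genes called there were 594, falling to 45 under quantile normalization and 344 with shortened windows, and 298 to 1431 when 1 array was left out. From middle to late, shortened windows left 1 member and 1190 genes (against 3 and 2240), and leaving out 1 array gave 1 to 3 members and 1105 to 2570 genes. Leaving out 1 array gave 3 to 5 members from early to middle and 3 to 8 from early to late. A straight line in time called 5 members and 3704 genes, against 8 and 6911 for the spline, and a period of 3 h called 74 genes, against 0. Without the 0 h array, early minus 0 h could not be fitted. No paired analysis was possible because each time point had 1 array and there were no replicates. The cause of these changes was not tested. Signal over background could not be judged, as ratios hold no intensity.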

Other observations

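Smooth courses were called for 6 of 10 myoblast markers (Myod1, Myf5, Msc, Cdh15, Pax7 and Cdon), all but Cdon being members described above. They were also called for 4 of 7 fibroblast markers (Pdgfra, Dcn, Dpt and Col3a1) and 2 of 5 adipocyte markers (Cebpa and Lpl). The osteoblast list had 1 of 4 (Alpl) and the endothelial and blood list 1 of 9 (Adgre1). Over all genes 38.0% were called. Of 7 fibroblast markers, Col3a1 (-0.50 ± 0.07) and Dcn (-0.26 ± 0.06) fell from early to late, and Pdgfra fell by 0.42 ± 0.10 from 0 h to early (adjusted p = 0.0361). The Pdgfra call was lost without the 1, 1.5 or 2 h array (-0.42, -0.41 and -0.39). It was also lost under quantile normalization (-0.27), with 1 probe set per gene (-0.52) and with shortened windows (-0.39). Of all genes, 9.29% fell from early to late and 1.81% fell from 0 h to early. Of 5 adipocyte markers, Lpl fell by 0.54 ± 0.07 from early to late, where 9.29% of all genes fell. Of 4 osteoblast markers, Alpl rose by 0.39 ± 0.06 from early to middle and fell by 0.40 ± 0.06 from middle to late. In the first of these steps 7.74% of all genes rose, and in the second 2.06% fell. Alpl had ratios of 1.18 to 1.42 on the middle arrays and 0.901 to 1.04 on all others. The smooth course of Alpl (adjusted p = 0.0272, limma) was lost without the 3, 3.5, 5, 5.5 or 6 h array (adjusted p from 0.0676 to 0.0943). It was also lost with a spline of 3 degrees of freedom (adjusted p = 0.174) and with a straight line in time (adjusted p = 0.941). The smooth course of Adgre1 had an adjusted p of 0.0306. It was lost under quantile normalization (adjusted p = 0.0719) and without the 0 h array (adjusted p = 0.0825). Of the 10 myoblast markers, Msc rose and the cell surface receptor Cdon fell (by 0.36 ± 0.08) from early to late. These counts lie near the shares of all genes, of which 11.7% rose and 9.29% fell. From middle to late Myf5 rose, the acetylcholine receptor gene Chrna1 rose by 0.20 ± 0.05 (adjusted p = 0.0282, limma) and Cdon fell by 0.26 ± 0.08 (adjusted p = 0.0482). Of all genes, 10.3% rose and 2.06% fell in this step. The Chrna1 call was lost without the 2.5, 3.5, 4, 5.5 or 6 h array (adjusted p from 0.0525 to 0.0890, limma). It was also lost with shortened windows (adjusted p = 0.148), with 1 probe set per gene (adjusted p = 0.0586) and with median centring (adjusted p = 0.0516). The Cdon call in this step was lost without the 1, 1.5, 2.5, 3, 4, 4.5, 5, 5.5 or 6 h array (adjusted p from 0.0536 to 0.122, limma). Shortened windows and 1 probe set per gene ended it too (adjusted p = 0.103 each).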
